A study of Mus musculus with 74 samples.

Results

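The measurements cover 10 genes of bile acid synthesis, bile secretion, bile acid uptake and sterol export: Cyp7a1, Cyp8b1, Cyp27a1, Abcb11, Abcb4, Slc10a1, Abcg5, Abcg8, Abca1 and Abcg1. They were selected by gene symbol. All 10 were among the 14583 genes of the RNA-seq table, and in the ChIP-seq tables they were the annotated gene of 32 to 122 peaks, for example of 71 of the 49018 GPS2 peaks in Gps2 WT and LKO livers. The study asked how hepatocytes respond to the loss of GPS2, a subunit of the NCOR and SMRT corepressor complexes, and how PPARα enters that response. Of its 74 mouse liver libraries, 8 were RNA-seq, 64 were ChIP-seq with 6 antibodies, and 2 were input DNA and not used here. Gps2 LKO mice carried floxed Gps2 alleles deleted by Cre under the albumin promoter (Alb-Cre), which acts in hepatocytes, and their controls, called WT, were floxed littermates without Cre. Ncor LKO and Smrt LKO livers lacked NCOR or SMRT in the liver and were compared with WT livers of their own line. Pparα KO mice lacked PPARα in the whole body and, by the methods, came from the B6;129S4 line of Jackson Laboratory, with their own WT group. According to the labels all groups were C57BL/6 and 8 to 12 weeks old, and the mice were on chow diet. The column names of the H3K27ac and H3K4me3 libraries of the Gps2 line call them fed, and those of the other libraries do not state feeding. In the methods, several ChIPs were pooled for each ChIP-seq library.

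Hepatocytes convert cholesterol to bile acids. CYP7A1 sets the rate of the classic pathway, CYP8B1 directs it to cholic acid, and CYP27A1 oxidizes the sterol side chain and starts the alternative pathway. ABCB11 pumps bile salts into the canaliculus, ABCB4 moves phosphatidylcholine there, ABCG5 and ABCG8 together export cholesterol and plant sterols, SLC10A1 takes bile acids back up from blood, and ABCA1 and ABCG1 hand cholesterol to lipoproteins. Textbook regulators of these genes are the bile acid receptor FXR, which induces Abcb11 and, through SHP (Nr0b2), represses Cyp7a1 and Cyp8b1, the oxysterol receptors LXR, which induce Abcg5, Abcg8, Abca1 and Abcg1, and PPARα, an inducer of Abcb4.

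The RNA-seq libraries held 13.2 to 20.1 M counts and the ChIP-seq libraries 7.9 to 46.1 M tags, of which 0.31% to 80.9% lay in the listed peaks. In RNA-seq the hepatocyte marker genes summed to 97959 to 102167 CPM (counts scaled by TMM to a library of 1 M) in WT and 136354 to 164558 CPM in Gps2 LKO, and 4 of their 5 members rose. Over all tested genes 23.4% rose and 21.4% fell. Markers of other liver cells moved with the genotype too. All 6 macrophage markers and all 5 stellate cell markers rose, with sums of 137 to 140 against 188 to 220 CPM and of 105 to 109 against 193 to 206 CPM. Cholangiocyte markers rose for 3 of 5 members (64.4 to 68.7 against 91.1 to 112 CPM), endothelial markers for 2 of 5 (113 to 119 against 122 to 135 CPM), and Ptprc, the 1 lymphocyte marker tested, rose as well. Of the 3 erythroid markers 2 rose and Alas2 fell. No marker listed for hepatocytes, cholangiocytes, macrophages, stellate or endothelial cells was at 0 in any library. The part of these shifts in the values below was not tested. In bulk liver, a change in the number of cells of a type and a change in RNA per cell cannot be told apart. The 4 Y-linked genes examined summed to 169 to 189 CPM in all 8 RNA-seq libraries, while the 6 H3K27ac libraries of the Smrt line, WT and LKO, had 0 tags in the 5 Y-linked peaks and 249 to 289 tags per 10 M at Xist. The 6 libraries of the Ncor line had 306 to 371 tags in the Y-linked peaks and at most 4.92 at Xist. The methods describe male mice, so the Smrt line goes against that description, and line and sex cannot be told apart in any comparison of Ncor with Smrt LKO.

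Gps2 mRNA, the check of the genotype, was 16.4, 15.8, 16.7 and 15.1 CPM in WT1 to WT4 and 12.7, 9.86, 9.16 and 12.9 CPM in LKO1 to LKO4. The groups did not overlap, and the log2 fold change was -0.53 (SE 0.11, adjusted p = 0.0021 in edgeR's quasi-likelihood test with Benjamini-Hochberg adjustment over 12220 genes). By length, WT levels of the 10 members ran from 419 RPKM (CPM per kilobase of exon) ± 3.47 (SD, n = 4) for Slc10a1 through 265 ± 5.07 for Cyp27a1, 143 ± 3.62 for Cyp8b1, 101 ± 2.51 for Abcb11, 88.1 ± 2.67 for Cyp7a1, 70.1 ± 2.25 for Abcb4 and 50.6 ± 0.869 for Abcg5 down to 30.5 ± 1.78 for Abcg8, 30.4 ± 1.22 for Abca1 and 0.871 ± 0.105 for Abcg1. Abcg8 and Abca1 lay within each other's spread, and every other pair of neighbours in that order was separated by more than its SDs. In Gps2 LKO livers 4 members rose and 3 fell, where 23.4% of all tested genes rose and 21.4% fell. The members' median log2 fold change was 0.12, against 0.03 over all genes, and the direction differed between enzymes and between exporters.

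**Figure D1:**
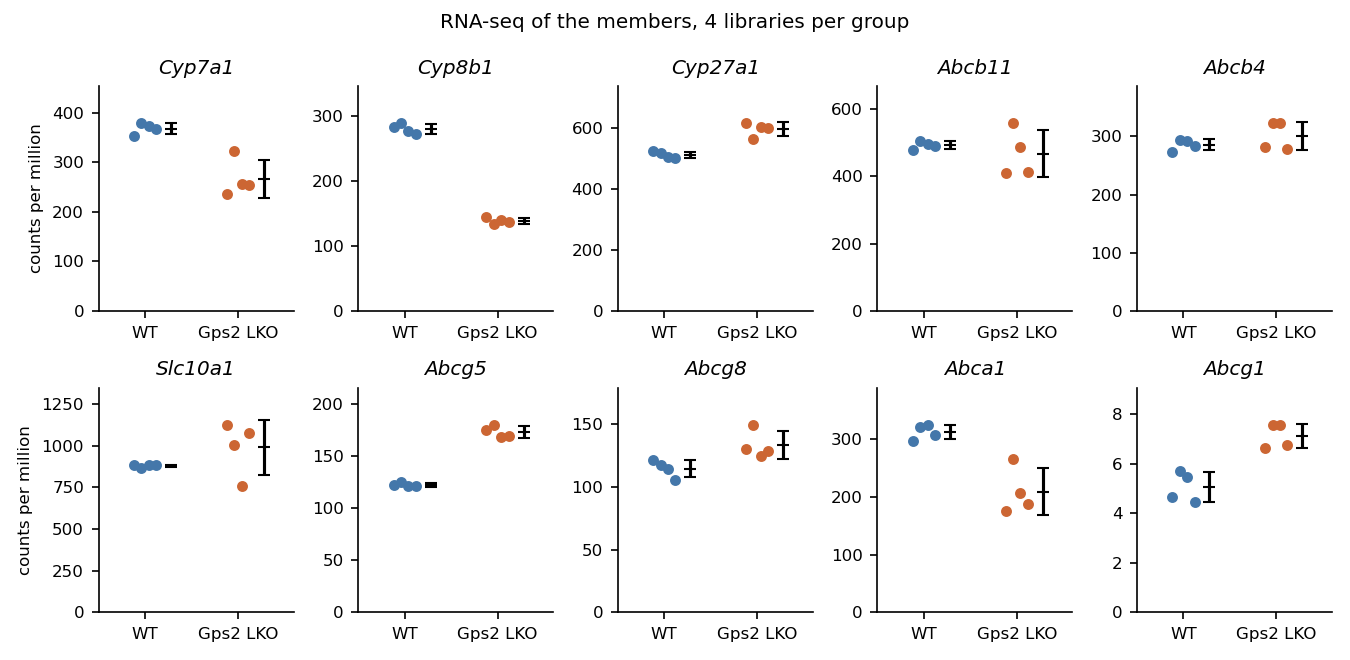
CPM (vertical axis, scaled by TMM) of the 10 genes in 4 WT and 4 Gps2 LKO livers (points), with mean and SD at the right of each group. Cyp8b1, Cyp7a1 and Abca1 are lower and Abcg5, Abcg8, Abcg1 and Cyp27a1 higher in every LKO library than in any WT library, while Abcb11, Abcb4 and Slc10a1 overlap.

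Among the 3 member enzymes, Cyp8b1 moved most. It was 282, 288, 276 and 272 CPM in WT and 144, 133, 140 and 136 CPM in LKO, with no overlap and little spread in either group. Cyp8b1 fell by 50.6% (log2 fold change -1.02, SE 0.05, adjusted p = 7.6e-09). Cyp7a1 was 352, 378, 373 and 367 CPM in WT and 235, 322, 255 and 253 CPM in LKO. All LKO libraries were below WT, and LKO2 was the nearest to it. Cyp7a1 fell by 27.6% (log2 fold change -0.46, SE 0.08, adjusted p = 7.2e-04). Cyp27a1 was 524, 519, 506 and 504 CPM in WT and 616, 565, 606 and 602 CPM in LKO, without overlap, a rise of 16.4% (log2 fold change 0.22, SE 0.05, adjusted p = 0.00435). The enzymes of the classic pathway and Cyp27a1 thus moved in opposite directions in the same livers.

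The 3 transporters of canalicular bile salts, phospholipid and basolateral uptake were not called. Abcb11 was 477, 506, 497 and 489 CPM in WT and 411, 557, 486 and 412 CPM in LKO, and LKO2 lay above every WT library while LKO1 and LKO4 lay below them (log2 fold change -0.08, adjusted p = 0.486). Without LKO2 it was -0.19 with an adjusted p of 0.00534. Abcb4 was 273, 293, 292 and 284 CPM in WT and 281, 322, 322 and 278 CPM in LKO, again overlapping (0.07, adjusted p = 0.372). Slc10a1, the most abundant member, was 884, 869, 884 and 883 CPM in WT but 1125, 1002, 758 and 1077 CPM in LKO. LKO3 alone was below WT, the log2 fold change was 0.17 (SE 0.10, adjusted p = 0.16), and without LKO3 it was 0.28 with an adjusted p of 0.00219.

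The sterol exporters split. Abcg5 was 122, 125, 121 and 121 CPM in WT and 175, 180, 168 and 169 CPM in LKO. It did not overlap and rose by 41.6% (log2 fold change 0.50, SE 0.05, adjusted p = 1.0e-05). Abcg8, its partner in the transporter and its neighbour in the genome, was 121, 117, 114 and 105 CPM in WT and 130, 149, 124 and 128 CPM in LKO. The groups were apart by less than their ranges, and Abcg8 rose by 15.8% (log2 fold change 0.21, SE 0.07, adjusted p = 0.0284), a call that was lost in DESeq2 (adjusted p = 0.0757) and without WT2 (0.0553), WT3 (0.0706), WT4 (0.0982) or LKO2 (0.0509). Abcg1, scarcely expressed, was 4.65, 5.7, 5.47 and 4.46 CPM in WT and 6.64, 7.57, 7.55 and 6.75 CPM in LKO, without overlap, and rose by 40.6% (log2 fold change 0.50, SE 0.12, adjusted p = 0.00449). Abca1 went the other way, with 297, 321, 324 and 306 CPM in WT and 175, 266, 206 and 188 CPM in LKO. It fell by 33% (log2 fold change -0.58, SE 0.10, adjusted p = 7.2e-04), and LKO2 was again the LKO library nearest to WT.

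Fold changes in this table went with the length of the gene. Across the 12220 tested genes, which are not independent replicates, Spearman's rho between log2 fold change and exon length was -0.40. Abca1, with 10260 exon bases, is the longest member. With the trend against length removed, its log2 fold change was -0.17 (adjusted p = 0.00169), that of Abcg1 0.72 (adjusted p = 7.0e-05) and that of Cyp27a1 0.10 (adjusted p = 0.0349), of the same sign as before and still called. Abcb11 changed sign, to 0.09 (adjusted p = 0.124), and Abcb4 was called higher (0.18, adjusted p = 0.00245). Cyp8b1 at -1.13, Cyp7a1 at -0.35, Abcg5 at 0.46 and Abcg8 at 0.29 kept direction and call.

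**Figure D2:**
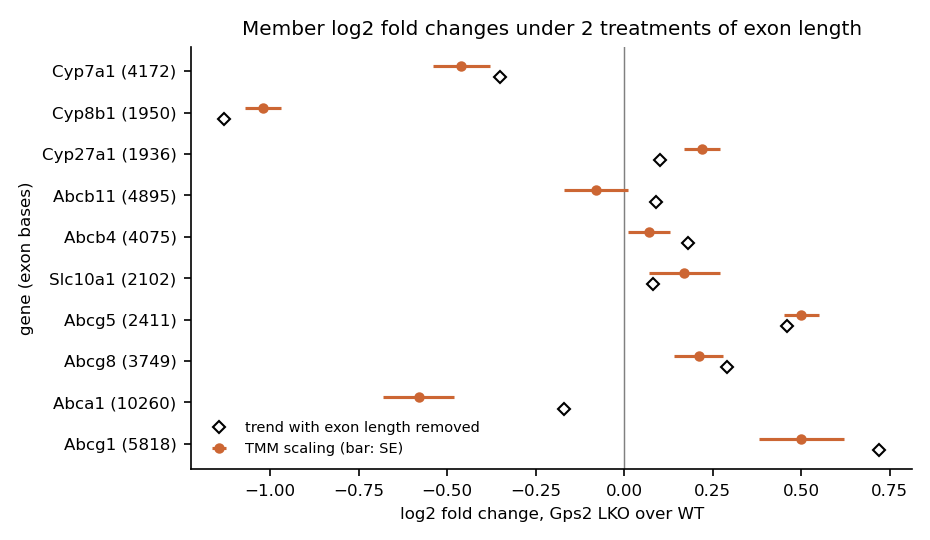
Log2 fold change of Gps2 LKO over WT (horizontal axis) for the 10 genes, with exon bases in brackets, under TMM scaling (filled, bar 1 SE) and with the trend against exon length removed (open, no error shown). The open symbol of Abca1 sits at -0.17 against -0.58, and Abcb11 moves from -0.08 to 0.09.

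Other genes of the same pathways, listed with earlier results of these data known, also moved in both directions. The counts below stand beside 23.4% of all tested genes that rose and 21.4% that fell. Except where said, the values of these genes still hold the trend with exon length. Of 15 further bile acid synthesis genes tested, 5 rose, 5 fell and 5 were not called. Cyp7b1, the oxysterol hydroxylase of the alternative pathway, fell from 502 to 80.6 CPM (log2 fold change -2.64, SE 0.06, adjusted p = 1.6e-12). Acox2 and Scp2 of peroxisomal side chain shortening fell by 0.69 and 0.48 on the log2 scale, while the sterol hydroxylases Cyp39a1 and Cyp46a1 rose, with log2 fold changes of 0.55 and 1.61. Among 10 further transport genes 2 rose and 4 fell. Abcc2, the canalicular conjugate exporter, went from 694 to 394 CPM (-0.82, adjusted p = 0.00434), Atp8b1, the flippase that protects the canalicular membrane, from 56.2 to 33.6 CPM (-0.74), Ephx1 from 450 to 305 CPM (-0.56) and Slco1a1, a basolateral uptake carrier, from 728 to 551 CPM (-0.40), while the basolateral exporter Abcc4 rose from 1.43 to 2.85 CPM (1.00). Of 11 sterol handling genes 4 rose and 3 fell, among them the lysosomal cholesterol carriers Npc2 (log2 fold change 0.54) and Npc1 (-0.40), which moved apart, the ester hydrolase Nceh1 (-0.59) and Mylip (0.31), which marks the LDL receptor for degradation. Of 12 regulators 4 rose and 4 fell. Nr0b2, encoding SHP, rose (30.2 to 42.3 CPM, log2 fold change 0.48, SE 0.10, adjusted p = 0.00145), as did Nr1i3 (0.47) and Nr1h2, encoding LXRβ (0.27). Hnf4a, Nr5a2 and Ppara fell, by 0.41, 0.45 and 0.39 on the log2 scale, although with the length trend removed Ppara was at -0.09 (adjusted p = 0.212). Nr1h4, encoding FXR, and Nr1h3, encoding LXRα, were not called (0.05, adjusted p = 0.459, and 0.15, adjusted p = 0.0921).

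GPS2 itself was mapped with 1 library in Gps2 WT against 1 in Gps2 LKO livers, so that no difference between them has a replicate check, and intervals below cover counting error only. The peaks were counted in 9 of the 10 genes. Abca1 had 17 peaks, Cyp7a1, Abcb4 and Abcg8 had 9 each, Cyp27a1 7, Abcg1 6, Cyp8b1 and Abcb11 5 and Slc10a1 4, while Abcg5 was the annotated gene of none, its transcription start site (TSS) lying next to that of Abcg8. Positions are in mm9. GPS2 tags were highest at an intronic Abcg8 peak (10856 bp from the TSS), an intronic Abcb4 peak (34948 bp) and the Abcg8 promoter (-37 bp), with 113, 98 and 84 tags in WT. The 3 peaks with a receptor element inside them (Abcb11, Cyp8b1 and the Abcg1 intron), the strongest peaks of Abcg8 and Abca1, the Cyp7a1 promoter and 2 of the upstream Abcg1 sites discussed below are given here, with the deposited peak of 137 bases on the plus strand read from the mm9 genome, 5′ to 3′. Capitals mark matches to pairs of the nuclear receptor element AGGTCA, with at most 1 mismatch in 12 bases, or in Abca1 an exact copy of that element on the minus strand, and windows without capitals held neither.
Abcb11 promoter, -81 bp, chr2:69180686-69180822: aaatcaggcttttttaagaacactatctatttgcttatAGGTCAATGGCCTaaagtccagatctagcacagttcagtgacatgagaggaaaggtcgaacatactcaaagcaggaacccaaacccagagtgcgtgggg
Cyp8b1, 3162 bp, chr9:121822193-121822329: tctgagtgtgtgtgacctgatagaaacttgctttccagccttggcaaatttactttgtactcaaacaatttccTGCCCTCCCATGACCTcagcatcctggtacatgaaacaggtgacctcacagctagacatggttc
Abcg1 intron, 18016 bp, chr17:31212587-31212723: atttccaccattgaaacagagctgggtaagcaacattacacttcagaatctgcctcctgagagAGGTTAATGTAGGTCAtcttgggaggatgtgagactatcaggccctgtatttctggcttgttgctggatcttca
Cyp7a1 promoter, -185 bp, chr4:6202895-6203031: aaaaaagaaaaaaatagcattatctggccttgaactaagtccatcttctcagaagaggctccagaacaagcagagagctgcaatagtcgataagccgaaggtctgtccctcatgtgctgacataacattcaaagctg
Abcg8 intron, 10856 bp, chr17:85093249-85093385: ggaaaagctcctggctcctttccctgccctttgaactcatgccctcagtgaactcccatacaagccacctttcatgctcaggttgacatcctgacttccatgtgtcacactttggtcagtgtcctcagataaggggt
Abca1 intron, 39722 bp, chr4:53132977-53133113: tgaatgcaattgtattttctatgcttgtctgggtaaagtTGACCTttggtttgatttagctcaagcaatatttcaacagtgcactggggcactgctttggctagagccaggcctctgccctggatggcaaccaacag
Abcg1 upstream, -28097 bp, chr17:31166474-31166610: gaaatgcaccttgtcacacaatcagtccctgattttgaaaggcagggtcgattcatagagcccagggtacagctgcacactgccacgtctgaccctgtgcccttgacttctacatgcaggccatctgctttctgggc
Abcg1 upstream, -21589 bp, chr17:31172982-31173118: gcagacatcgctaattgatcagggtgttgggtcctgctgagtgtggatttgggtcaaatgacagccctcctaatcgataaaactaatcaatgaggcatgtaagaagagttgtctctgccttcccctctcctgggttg

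The windows were searched for 3 arrangements of AGGTCA on both strands over 201 bases around each peak centre: DR1 (AGGTCANAGGTCA, the direct repeat that PPARα binds with RXR), DR4 (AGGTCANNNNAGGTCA, that of LXR) and IR1 (AGGTCANTGACCT, that of FXR). DR1 was in 0 of the 71 member windows and in 2.2% of all 49018. DR4 was in 2 (2.82% against 0.706% of all), in Cyp8b1 at 3162 bp and Abcg1 at 18016 bp, and IR1 in 2 (2.82% against 0.441%), in the Abcb11 promoter and in Abcb4 at 34948 bp, there beyond the end of the peak. DR1 and DR4 stood together in 0.0367% of all windows and in no member. An exact AGGTCA inside the peak was in 22.5% of member peaks and in 23.8% of all. A match is a description of the letters and does not show binding.

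In Gps2 LKO livers GPS2 tags at members nearly vanished. The 71 peaks summed to 2483 tags in the WT and 71 in the LKO library, with 28 peaks at 0 tags in LKO. At least a 2-fold fall, in peaks with 10 tags or more, was seen at 69 of 71 member peaks and in 85.7% of all peaks, and a rise in 0 members and 0.102% of all. No member peak held more than 5 tags in LKO, so their listing rested on the WT library, which favours a fall. The Abcg8 peak at 10856 bp went from 113 tags (72.9 per 10 M, 95% Poisson interval 60.1 to 87.7) to 0, at least 36-fold lower when 0 is set to 3 tags in the LKO library. The Abcb4 peak at 34948 bp went from 98 to 0 tags, at least 31.2-fold lower. The Abcb11 promoter peak at -370 bp went from 74 to 1 tag, the Abcb11 peak at -81 bp from 66 to 0 and the Cyp7a1 promoter peak at -185 bp from 63 to 2. The LKO library placed 0.31% of its tags in the listed peaks and the WT library 7.07%, and when both were scaled to tags in listed peaks 16 of the 71 passed the same limit. The share of all peaks under that scaling is not given here, so this count does not set the members apart from other peaks.

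**Figure D3:**
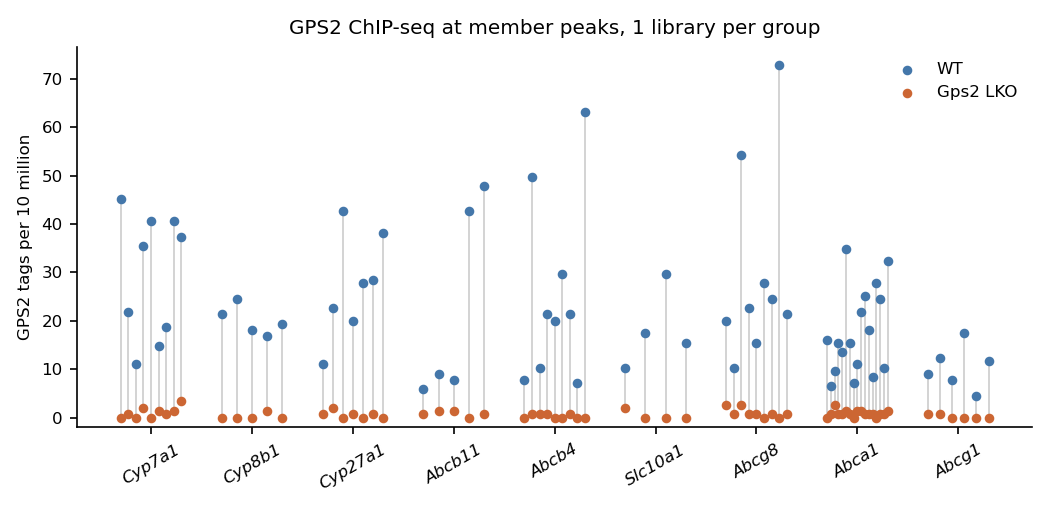
GPS2 ChIP-seq tags per 10 M (vertical axis) at each of the 71 peaks of 9 genes in 1 WT and 1 Gps2 LKO library, joined by a grey line. WT peaks reach 72.9 at Abcg8, and no LKO point exceeds 3.38.

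The member GPS2 peaks were compared in position with the other factors. NCOR peaks of the Gps2 line overlapped 63 of 71 (88.7%, against 85.7% of all GPS2 peaks, overlap of at least 1 base), and PPARα peaks of that line 64 of 71 (90.1% against 87.7%). PPARα peaks called in the Pparα line, which were fewer, overlapped 77.5% of member and 61.2% of all GPS2 peaks, and GPS2 peaks of that line 71.8% and 48.7%. For GPS2 peaks of the Ncor line the shares were 87.3% and 77%. All but 1 of the 71 lay in an H3K27ac or H3K4me3 region (98.6% against 92.5%). Cyp7a1 showed PPARα peaks of the Pparα line at 9 of its 9 GPS2 peaks and Abca1 at 12 of its 17.

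H3K27ac, a mark of active enhancers and promoters, and H3K4me3, a mark of active promoters, were measured in 2 WT and 2 Gps2 LKO libraries each. For H3K27ac 0 of 43 tested member regions were called in edgeR, against 1.21% higher and 0.212% lower of all regions, although 13 of the 43 (30.2%, against 14.6% of all regions) had an unadjusted p under 0.05 and DESeq2 called 1. With a term for the replicate number 9 were called, 20.9% against 5.23% of all regions. The largest Abcb11 region (2735 bp) was 460 and 376 tags per 10 M in WT against 647 and 551 in LKO, apart but not called (log2 fold change 0.52, SE 0.12, adjusted p = 0.0909; 0.00291 without LKO2). The Cyp27a1 region (7978 bp) was 1661 and 1584 in WT against 2079 and 2006 in LKO (0.33, adjusted p = 0.098). Abcb4 (0.31, adjusted p = 0.183), Slc10a1 (0.25, adjusted p = 0.234) and Cyp7a1 (0.33, adjusted p = 0.192) were likewise above WT in both LKO libraries without a call, whereas Cyp8b1, with 2724 and 2868 in WT against 2732 and 3189 in LKO, overlapped. The region with most tags assigned to Abcg8 (53450 bp) began at chr17:85126949, past the end of that gene at 85099673. It lay below WT in both LKO libraries, at 1390 and 1165 in WT against 1030 and 645 in LKO (-0.61, SE 0.20, adjusted p = 0.192). Without LKO1 it was at -0.98, and with a term for the replicate number it was called lower (-0.64, adjusted p = 0.0067). The region at the Abcg8 promoter (395 bp) was 524 and 548 in WT against 576 and 610 in LKO, above WT without a call (0.14, adjusted p = 0.478). At Cyp7a1 and Cyp8b1, whose mRNA fell, no H3K27ac region was thus called.

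For H3K4me3, 3 of 11 tested member regions were called higher and 0 lower, against 0.798% and 0.118% of all regions. All 3 belonged to transporters whose mRNA was not called. Abcb4 (7024 bp) was 898 and 880 tags per 10 M in WT against 1189 and 1219 in LKO (log2 fold change 0.44, SE 0.06, adjusted p = 0.00349). Abcb11 (2735 bp) was 660 and 548 in WT against 878 and 765 in LKO (0.44, SE 0.09, adjusted p = 0.0358), a call lost without WT2 (0.231) or LKO1 (0.174). Slc10a1 (7594 bp) was 2311 and 2238 in WT against 2808 and 2795 in LKO (0.30, SE 0.06, adjusted p = 0.0366), a call lost under TMM scaling (0.0932) and without WT1 (0.0515), WT2 (0.15), LKO1 (0.201) or LKO2 (0.245). When all regions of the table were tested, including those with no H3K4me3 peak, 0 members were called in edgeR and Abcb4 had an adjusted p of 0.055. The shared Abcg5 and Abcg8 promoter (395 bp from the Abcg8 TSS) was 660 and 553 in WT against 735 and 748 in LKO (0.29, adjusted p = 0.173; 0.016 without WT1).

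RNA polymerase II was mapped with 1 library per group. Of 32 member peaks 1 passed a 2-fold rise, against 6.19% of all peaks higher and 4.63% lower, namely Abcb4 at 11050 bp with 10 tags in WT against 26 in LKO. At promoters, Abcb11 had 74 tags in WT against 45 in LKO (63.5 and 37.8 per 10 M), Cyp8b1 106 and 86, Cyp7a1 195 and 209, Cyp27a1 247 and 229, Abcg5 161 and 170 and Abca1 247 and 254. Cyp8b1 and Abca1, whose mRNA fell, had ratios of LKO to WT of 0.795 and 1.01 at their promoters. These values compare libraries and not genotypes.

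In the Ncor line, with 3 WT and 3 LKO libraries, 3 of 67 member H3K27ac regions were called higher and 0 lower, against 2.32% and 0.801% of all regions. Abcb11 at 2640 bp was 364, 371 and 359 tags per 10 M in WT against 620, 537 and 521 in Ncor LKO, well apart (log2 fold change 0.62, SE 0.10, adjusted p = 0.0116). Abca1 at -40504 bp was 255, 227 and 228 in WT against 379, 384 and 517 in LKO (0.85, SE 0.13, adjusted p = 0.0103). Abca1 at 38741 bp, within the gene, was 874, 853 and 820 in WT against 1310, 1206 and 1001 in LKO (0.47, SE 0.11, adjusted p = 0.0493). The groups stayed apart at all 3 regions, but the calls changed when single libraries were left out. Without WT2 or without WT3 0 members were called (0.577% and 0.881% of all regions). The count was 1 without WT1 (1.39% of all) and 5 without LKO2 (3.72% of all).

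In the Smrt line 0 of 67 member regions were called in edgeR, where 0% of all 68800 regions were called higher and 0% lower. DESeq2 called 0 members and 0.0988% of all regions. In edgeR 6 members (8.96%, against 5.93% of all) had an unadjusted p under 0.05. Abcb11 at 2640 bp was 642, 624 and 430 tags per 10 M in WT against 589, 683 and 637 in LKO, overlapping (log2 fold change 0.17, adjusted p = 0.868). Abca1 at -40504 bp was 201, 213 and 230 in WT against 182, 192 and 170 in LKO, apart but not called (-0.24, adjusted p = 0.834). In a direct test of Ncor LKO against Smrt LKO effects 1 of 67 member regions was called higher in Ncor and 0 lower, against 0.33% and 0.0959% of all. That region was Abca1 at -40504 bp, with a difference of 1.10 (SE 0.17, adjusted p = 0.0168). The call was lost without WT2 of the Ncor line or without LKO3 of the Smrt line, and, as said, the Smrt livers had no tags on the Y chromosome.

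**Figure D4:**
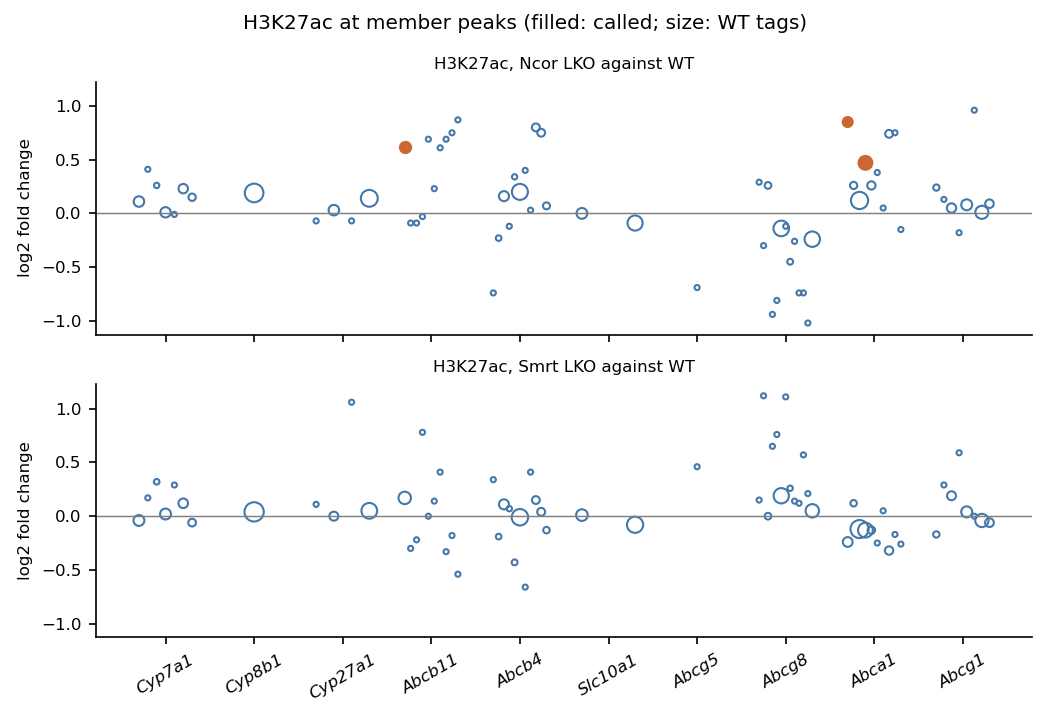
Log2 fold change of H3K27ac (vertical axis) at each member region, ordered by position within each gene, in Ncor LKO (top) and Smrt LKO (bottom) against their WT, 3 libraries per group. Filled points are called, and point size follows the WT tags. The called regions are 1 of Abcb11 and 2 of Abca1 in Ncor LKO, and none is called in Smrt LKO.

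PPARα ChIP-seq was performed in 3 of the lines. In the Pparα line, with 2 WT and 2 KO libraries, the signal checks the antibody: 32 of 66 member peaks were called lower and 0 higher, against 27.6% and 0.0174% of all peaks, with a median log2 fold change of -1.94 for the members and -1.68 for all. The Abcg8 peak at 10836 bp was 27.6 and 24.5 tags per 10 M in WT and 0.687 and 1.47 in KO (log2 fold change -4.50, SE 0.50, adjusted p = 1.6e-05). The Abca1 peak at 39701 bp was 29.7 and 30.6 in WT and 2.06 and 1.47 in KO (-4.02, SE 0.42, adjusted p = 1.1e-05). At the Abcb11 promoter (-82 bp) it was 15.6 and 19.1 against 2.06 and 0.733 (-3.53, adjusted p = 2.4e-04), at the Abcg5 promoter (-53 bp) 19.8 and 16.8 against 2.06 and 2.2 (-3.06, adjusted p = 2.3e-04) and upstream of Cyp27a1 (-638 bp) 19.8 and 16.8 against 2.75 and 3.66 (-2.49, adjusted p = 6.0e-04). The peaks of Abcg8, Abca1 and the Abcb11 promoter lay on the GPS2 windows printed above. Each of the 10 genes had at least 1 called peak. The KO libraries placed 0.652% and 0.581% of their tags in listed peaks and the WT libraries 2.14% and 2.44%. With so few KO tags, the listing of these peaks rested mostly on WT libraries, which favours a fall. With TMM scaling, which sets the overall loss aside, 5 were called (7.58%, against 3.6% of all peaks). Calls were lost without WT1 or without WT2, over all peaks as over members, with 1 WT library left.

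In Gps2 LKO livers PPARα tags were higher across the table, with a median log2 fold change of 0.62 over all peaks and 0.57 over member peaks. The 3 WT libraries of this comparison differed by no more than sampling noise (mean chi-square per degree of freedom 0.924) and were counted as 1 sample against 3 LKO libraries, so that this lone sample is assumed to vary like the LKO libraries. Of 118 member peaks 37 were called higher and 0 lower, against 21.5% and 0.147% of all peaks, and under TMM scaling, which centres the overall rise to a median of 0.02, 0 were called higher and 1 lower. The count was 23 without WT1 and 4 in DESeq2. With the WT libraries as 3 samples 59 were called higher and 1 lower, and 36.9% of all peaks were called. The Cyp8b1 promoter (-98 bp) was 27.8, 28.5 and 28.2 tags per 10 M in WT against 43.7, 54 and 55.1 in LKO (log2 fold change 0.87, SE 0.28, adjusted p = 0.0161), a call lost without LKO3 (0.111). Cyp27a1 at -15915 bp was 15.2, 26.6 and 19.2 in WT against 40.2, 63.5 and 51.6 in LKO (1.32, SE 0.29, adjusted p = 4.5e-04). Abcb11 at 53314 bp was 10.1, 8.55 and 11.3 in WT against 31, 26.5 and 36.9 in LKO (1.69, SE 0.36, adjusted p = 2.2e-04). The Abcg5 promoter (-48 bp) was 77.2, 93.1 and 76.7 in WT against 138, 146 and 114 in LKO (0.66, SE 0.25, adjusted p = 0.04), a call lost without LKO2 (0.257), WT1 (0.0769) or WT3 (0.0829). Abcg1 had the lowest median of the 10 genes, 0.14 over 11 peaks, and Abcb11 the highest, 0.99 over 7.

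In Ncor LKO livers 1 of 105 member PPARα peaks was called higher and 0 lower, against 0.151% and 0.0453% of all peaks. It was Abca1 at -38143 bp, with 4.94, 8.01 and 1.43 tags per 10 M in WT against 6.27, 7.47 and 54.1 in LKO, so that 1 library, LKO3, carried the difference and the groups overlapped (log2 fold change 2.23, adjusted p = 0.0343). Without LKO3 it was 0.53 (adjusted p = 1) and 0 member peaks were called, as also without WT1, WT2, LKO1 or LKO2. Of all peaks 0.0058% to 0.0882% were called in these settings.

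NCOR was mapped in the Pparα and Gps2 lines with 3 libraries per group. In Pparα KO livers 6 of 122 member peaks were called lower and 0 higher, against 2.51% and 0.136% of all peaks, while the median log2 fold change was -0.31 for members and -0.32 for all. Abcg1 held 4 of the 6, in 1 stretch upstream of its TSS. The peak at -28131 bp was 14.6, 13.8 and 55.6 tags per 10 M in WT and 1.63, 2.69 and 0.712 in KO. Every KO library was far below WT, and WT3 was the highest (log2 fold change -3.97, SE 0.49, adjusted p = 1.1e-12). With so few KO tags, the listing of this peak rested on WT libraries, which favours a fall. The peak at -21612 bp was 32.5, 43.9 and 51.4 in WT and 8.99, 4.71 and 5.69 in KO (-2.72, SE 0.38, adjusted p = 5.8e-10). The peak at -17928 bp was 37.4, 45.6 and 56.5 in WT and 22.9, 16.8 and 20.6 in KO (-1.21, SE 0.31, adjusted p = 0.00701), a call lost without WT3 (0.116) or KO2 (0.0532). The other calls were Abcg1 at -19053 bp (-2.45, adjusted p = 0.00224, named after its values were seen), Abca1 at 4171 bp, with 35.8, 33.5 and 36.2 in WT and 17.2, 16.8 and 11.4 in KO (-1.22, adjusted p = 0.019), and Abcb4 at 6113 bp, with 40.6, 23.2 and 38.8 in WT and 18, 14.1 and 14.2 in KO (-1.15, adjusted p = 0.0309). Under TMM scaling 3 were called, and Abca1 (0.0584) and Abcb4 (0.12) were among those lost. The Abca1 call was also lost without WT1, WT3, KO1 or KO3 and the Abcb4 call without WT1, WT3, KO1, KO2 or KO3. The count was 2 without WT3 and 3 without KO3.

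**Figure D5:**
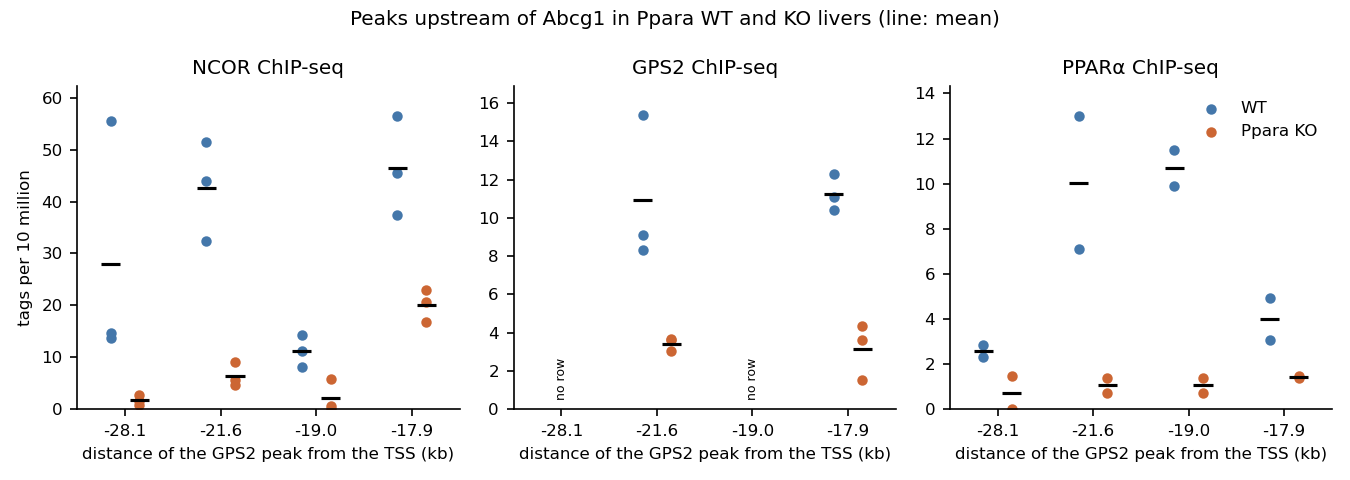
Tags per 10 M (vertical axes, differing between panels) of NCOR, GPS2 and PPARα ChIP-seq in WT and Pparα KO libraries (points, line at the mean) at 4 GPS2 peaks upstream of Abcg1, placed by distance from the TSS in kb. NCOR at the peak at -21612 bp is 32.5 to 51.4 in WT and 4.71 to 8.99 in KO, and 2 of the 4 places have no GPS2 peak in this line.

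The other factors at the same Abcg1 stretch were lower in Pparα KO livers as well, with smaller tag counts. PPARα at -21600 bp was 7.08 and 13 tags per 10 M in WT and 1.37 and 0.733 in KO (log2 fold change -3.13, adjusted p = 0.0067), and at -19040 bp 9.91 and 11.5 against 1.37 and 0.733 (-3.22, adjusted p = 0.00319). At -17936 bp (-1.45, adjusted p = 0.191) and -28090 bp (-1.74, adjusted p = 0.231) PPARα was lower without a call. The median over all PPARα peaks of this knockout was -1.68, and, as said, the listing of its peaks favours a fall. GPS2 at -17987 bp was 10.4, 11.1 and 12.3 in WT and 4.37, 1.51 and 3.61 in KO, apart but not called (-1.80, adjusted p = 0.149), and at -0.89 under TMM scaling. In Gps2 LKO livers 0 of 89 member NCOR peaks were called in edgeR, against 0.0124% higher and 0.00495% lower of all peaks. DESeq2 called 0 members and 0.00866% of all peaks. In edgeR 6 members (6.74%, against 2.79% of all) had an unadjusted p under 0.05. The peak with the smallest unadjusted p, chosen after its values were seen, was Abcg1 at -28107 bp. NCOR there was 9.95, 19.7 and 5.8 in Gps2 WT against 2.35, 2.06 and 1.63 in Gps2 LKO (log2 fold change -2.51, SE 0.57, adjusted p = 0.0534; 0.0169 without WT3 and 0.00247 under TMM scaling). At -21585 bp, by contrast, NCOR was 33.9, 36.1 and 11 in WT against 21.6, 24.7 and 11.9 in LKO and overlapped (-0.48, adjusted p = 1). The Abcb11 promoter peak (-240 bp), with 109, 106 and 67.2 in WT against 104, 132 and 61.3 in LKO, overlapped too (0.08, adjusted p = 1), and its sign turned without WT3 (-0.12) or LKO2 (-0.19).

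GPS2 was also mapped in livers without its partners. In Ncor LKO 0 of 84 member peaks were called in edgeR, against 0% higher and 0.0338% lower of all peaks, but 53 of the 84 (63.1%, against 34.3% of all peaks) had an unadjusted p under 0.05, and DESeq2 called 38 lower, where it called 17.5% of all peaks. The median log2 fold change was -1.48 for members and -1.12 for all peaks, and TMM scaling brought the latter to -0.04 and called 1 member higher and 1 lower. WT3 stood apart, with 3.07% of its tags in listed peaks against 8.23% and 7.82% in WT1 and WT2, and without it 64 member peaks and 59.5% of all peaks were called. Abcb4 at 34907 bp was 100, 85.6 and 29.5 tags per 10 M in WT against 16.8, 23 and 15.1 in Ncor LKO (log2 fold change -1.97, SE 0.62, adjusted p = 0.0761). Abcg8 at 10810 bp was 87.9, 63.2 and 19.3 in WT against 12.3, 24.8 and 11.9 in LKO, with LKO2 above WT3 (-1.79, adjusted p = 0.0783). Cyp27a1 at 8326 bp was 71.8, 67.4 and 27.3 in WT against 20.2, 17.7 and 13 in LKO (-1.70, adjusted p = 0.0815). The Cyp7a1 promoter (-211 bp) was 46.4, 31.6 and 15 in WT against 14.8, 22.4 and 10.4 in LKO, overlapping (-0.97, adjusted p = 0.224), and turned to 0.11 under TMM scaling.

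In Pparα KO livers 0 of 53 member GPS2 peaks were called in edgeR, against 0% higher and 0.273% lower of all peaks, with 0 in DESeq2 and 17 (32.1%, against 23% of all peaks) with an unadjusted p under 0.05. Their median log2 fold change was -1.03, against -0.93 over all peaks, and TMM scaling brought these to -0.08 and 0.01. Cyp7a1 at 17451 bp was 18, 28 and 33.9 tags per 10 M in WT and 13.8, 8.32 and 5.05 in KO (log2 fold change -1.54, SE 0.57, adjusted p = 0.152), and at -0.64 under TMM scaling. Abcb4 at 34897 bp was 36.1, 34.5 and 55.4 in WT and 29.9, 29.5 and 7.93 in KO (-0.90, adjusted p = 0.249), and at -0.02 under TMM scaling. When scaled to total tags, both were lower in every KO library without reaching a call.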

How the data were processed

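RNA-seq counts per gene were deposited by the authors without normalization, from polyadenylated RNA. The methods name HISAT2 and the labels also featureCounts, and the methods give mm9, but the spans of 10 of 10 member genes in the table overlap GRCm38 gene positions and 2 of 10 those of mm9, so no position is taken from it. ChIP-seq tables hold raw tag counts per peak, deposited by the authors and made with Bowtie and HOMER on mm9. The crosslinker of the histone ChIPs differs between labels and methods. Deposited peak lists of the histone marks carry a constant score from the authors' HOMER calls, and their positions alone were used. Columns with the authors' own fold changes and p-values were not used.

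The members and gene lists were chosen with earlier results of these data known. Counts were tested with edgeR 4.0.16 in R 4.3.3 (quasi-likelihood, Benjamini-Hochberg over all features tested, called at adjusted p under 0.05), with TMM scaling and filterByExpr for RNA-seq. ChIP-seq counts were scaled to total tags, with at least 1 tag, and histone regions of the Gps2 line needed a deposited peak of the mark in 2 libraries. TMM for peaks, DESeq2 1.42.0, the filters, a replicate block and leaving out each library were the alternatives. Exact Poisson intervals (95%) and a floor of 3 tags were used with 1 library per group. The rule for names took all members in RNA-seq, up to 5 genes of each list by size of change plus their known regulators, and for each member and comparison at most 2 called peaks by adjusted p and the peak with most tags. GPS2 and Pol II peaks with 1 library per group, windows with a receptor element, upstream Abcg1 sites and peaks said to be so were named after their values were seen. The check of Y-linked tags was added after seeing the data. Correlations of deviations between libraries of the same number ran from -0.15 to 0.27, and in no comparison were all pairs above 0.1. For H3K27ac and H3K4me3 of the Gps2 line both pairs stood at 0.10. With 2 libraries per group the deviations mirror each other, so the pairs of a mark give 1 value. Each WT library there was nearest to the LKO library of its number, which for the same reason is 1 outcome per mark, so pairing was not settled. Nothing in the labels says that libraries of a group are separate mice, so p-values measure the spread between these libraries. Plots were drawn with matplotlib 3.10.9.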

Additional observations from a re-analysis of the deposited data

Results flagged for a closer look

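Slc10a1 in the WT RNA-seq livers is listed because 1 library lay far from the other 3: WT2 at 869 CPM against 883 to 884, a gap of 0.888 of the group's whole range, above the limit of Dixon's test. The range itself is narrow, with an SD of 7.29 CPM, and 20 groups were examined, of which chance would single out about 1. In the LKO group the spread of the same gene was 163 CPM.

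The H3K27ac region of Abca1 at -40504 bp is listed because the effects of Ncor LKO and Smrt LKO differed by 1.10 on the log2 scale in a test of the difference itself. The lines also differed in Y-linked tags, and the part of this was not tested.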

How the results depend on the processing

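No count of RNA-seq members called moved by more than 1.5 times (6 to 8 of 10 without 1 library, with 35.4% to 56.6% of all genes called), and Abcb11 turned to 0.09 with the length trend removed. Under TMM scaling the called member peaks in Ncor LKO numbered 2 for GPS2 (2.38%, against 2.23% of all peaks) and 2 for PPARα (1.9% against 1.74%). In Gps2 LKO they numbered 2 for NCOR (2.25% against 0.444%) and 1 for PPARα (0.847% against 0.973%). In Pparα KO they numbered 3 for NCOR (2.46% against 1.81%) and 5 for PPARα (7.58% against 3.6%). GPS2 at the Cyp7a1 promoter in Ncor LKO turned to 0.11 under this scaling. In DESeq2 the members called in Gps2 LKO were 1 for H3K27ac (2.33%, against 1.55% of all regions) and 4 for PPARα (3.39% against 1.63%). In Ncor LKO they were 6 for H3K27ac (8.96% against 4.93%), 38 for GPS2 (45.2% against 17.5%) and 0 for PPARα (0.0337% of all). With filterByExpr 7 GPS2 peaks were called in Ncor LKO (12.7%, against 6.83% of all). Over all regions 2 members were called for H3K27ac (2.78%, against 1.26% of all) and 0 for H3K4me3 (0.0374% of all) in Gps2 LKO. With the PPARα WT libraries as 3 samples 60 were called (50.8%, against 36.9% of all). Whether replicate numbers pair the histone libraries of the Gps2 line was not settled. With a replicate block the counts in Gps2 LKO were 9 for H3K27ac (20.9%, against 5.23% of all regions) and 4 for H3K4me3 (36.4% against 3.07%). They were 2 for NCOR (2.25% against 0.356%) and 61 for PPARα with 3 WT samples (51.7% against 36.3%). In Ncor LKO they were 38 for GPS2 (45.2% against 18.7%) and 0 for PPARα, and in Pparα KO 0 for PPARα, with 0% of all PPARα peaks called in both lines. With 1 library per group, 16 GPS2 peaks passed when scaled to tags in the listed peaks and 8 Pol II peaks passed 1.5-fold. The shares of all peaks are not given for these settings, so the counts do not set the members apart.

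Leaving out 1 library gave 0 to 5 H3K27ac and 1 to 3 H3K4me3 regions, 0 to 1 NCOR and 23 to 42 PPARα peaks in Gps2 LKO, 0 to 5 H3K27ac regions, 0 to 64 GPS2 and 0 to 1 PPARα peaks in Ncor LKO, 2 to 6 NCOR and 0 to 28 PPARα peaks in Pparα KO, and 0 to 1 regions between Ncor and Smrt LKO. Values ran from -0.03 (without LKO2) to 0.19 for H3K27ac at Cyp8b1 and from -0.19 to 0.33 for NCOR at the Abcb11 promoter in Gps2 LKO. Of 140 counts 95 moved by less than 1.5 times. Where values moved, the cause was not tested.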
